A study of Homo sapiens with 6 samples.

Results

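Kinesins, cytoplasmic dyneins and dynactin are the proteins that carry cargo along microtubules and move chromosomes on the spindle, and their mRNAs were examined here in human HEK293 cells, an embryonic kidney line. Members were taken by gene symbol: every KIF gene, every DYNC1 or DYNC2 gene, every DYNL light chain and every DCTN gene in either deposited table. The rule found 48 genes, of which 30 were kinesins, 11 were dynein subunits and 6 were dynactin subunits. The remaining one, KIF1BP, encodes a kinesin-binding protein that is not a motor. Of these, 37 were among the 8121 genes of the translational efficiency table, 44 were among the 9570 transcripts of the occupancy table, and 33 were in both.

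The study profiled ribosomes in HEK293 cells given a control siRNA, with 3 libraries of ribosome-protected fragments (RPFs) and 3 libraries of rRNA-depleted total RNA numbered 1 to 3. Cells had received cycloheximide, which holds elongating ribosomes in place, at 100 µg/ml before lysis. There was 1 condition, so genes were compared with each other and not between treatments. Nothing in the labels says that the replicates were separate cultures. The paper describes the steps from cell treatment to fragment isolation and states that they were done 3 times before library preparation. It does not name separate cultures, so the spread of the replicates may still be technical. Translational efficiency (TE) is the ratio of RPFs to total RNA in each replicate, and its median was 0.382, 0.380 and 0.388 in replicates 1, 2 and 3. Occupancy is the in-frame RPF signal per codon divided by mRNA level, with the replicates combined.

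Kinesins hydrolyse ATP to step along microtubules, most of them towards the plus end, and different families carry vesicles and organelles, organise the mitotic spindle or shorten microtubules. Cytoplasmic dynein walks towards the minus end: a heavy chain provides the motor, and intermediate, light intermediate and light chains hold the complex together and bind cargo. Dynactin is a separate complex built on a short actin-like filament that links dynein to its cargo and makes it move over long distances. In dividing cultured cells such as HEK293, both the transport and the mitotic motors are at work.

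The depth behind these values was that of the in-frame reads recovered from the occupancy table, 349302 over the 44 transcripts. Per coding sequence (CDS) the number ran from 53 reads in KIFC3, which had fewer than 100, to 57893 in KIF5B, with a median of 4827 against 1805 over all transcripts. The TE table holds no read numbers, so the depth behind a TE is known only through the occupancy table.

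Of the 37 motor genes with a TE, 20 were above the median of all genes, 12 were below it and 5 were not called at an FDR of 0.05 with limma. Over all 8121 genes, 44.7% were called above and 44.6% below, because the replicates agreed closely, against 54.1% and 32.4% of the motor genes. The median TE was 0.451 for the motor genes and 0.385 for all genes. KIF1C, at the bottom, and DYNLL2, at the top, were 67.0-fold apart, while the median SD between replicates over all genes was 0.10 on the log2 scale. The SD of log2 TE over the motor genes was 1.5, against 1.60 over all genes, so their spread was no wider than that of genes in general. Measured against the mean of all values, which lay 0.17 above the median on the log2 scale, the split became 16 above and 15 below. The order of the genes does not depend on the reference.

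**Figure D1:**
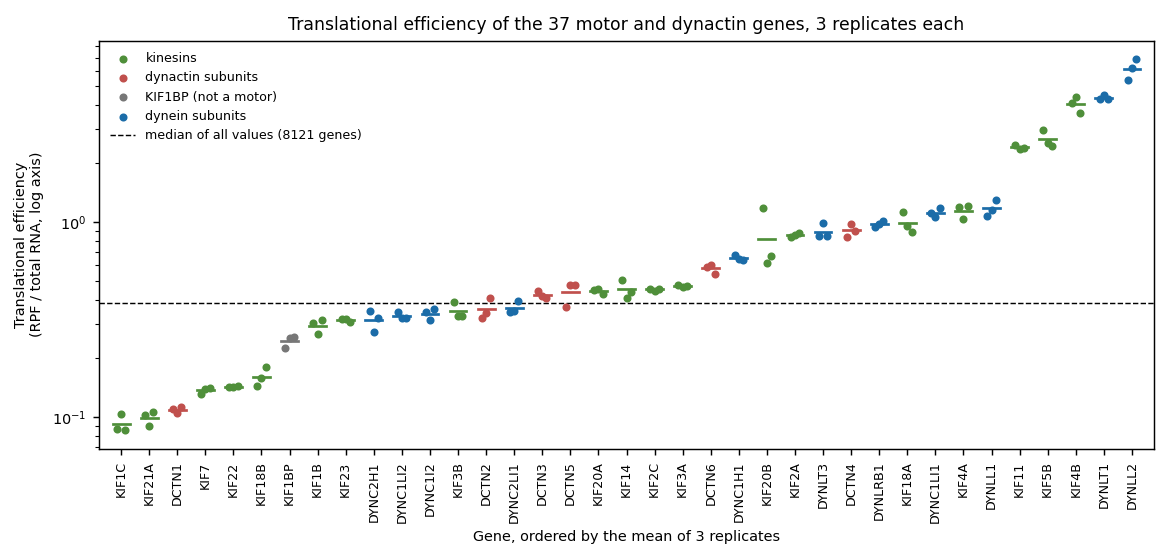
Translational efficiency (RPF over total RNA, log axis) of the 37 motor and dynactin genes, ordered by their mean, with a point for each of 3 replicates and a bar for the mean. The dashed line marks the median of all values, and the genes run from KIF1C near 0.0917 to DYNLL2 near 6.15, with replicates that lie close together except in KIF20B.

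Of the 19 kinesins with a TE, 11 were above the median and 7 were below. The transport kinesins and the mitotic kinesins were described as separate lists. Among 5 transport kinesins with a TE, 2 were called above and 2 below, with a median TE of 0.348. Among 11 mitotic kinesins with a TE, 8 were called above and 3 below, with a median of 0.451, as over all motor genes. Over all genes, 44.7% were called above and 44.6% below. Of the mitotic kinesins called above, KIF14, KIF20A and KIF2C lay only 0.22, 0.20 and 0.23 above the median on the log2 scale. These genes lost the call with the mean of all values as reference.

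KIF5B, the heavy chain of conventional kinesin (kinesin-1) that moves vesicles and mitochondria, had TE values of 2.99, 2.56 and 2.46 in replicates 1, 2 and 3. All of them lay far above the median, by 2.76 ± 0.07 (SE) on the log2 scale (limma adjusted p = 3.03e-06). Its mRNA level was 9.62 times that of the median transcript and its CDS held 60.1 in-frame reads per codon. The neuronal paralogs KIF5A and KIF5C were measured only in the occupancy table. KIF5C mRNA stood at 0.580 of the median transcript and KIF5A mRNA at 0.0707, the lowest of all 44. KIF5B thus exceeded KIF5C by 16.6-fold in mRNA level and by 23.1-fold in reads per codon.

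The 5′UTR of KIF5B held 567 in-frame reads, 0.970% of its 5′UTR and CDS reads together (exact 95% interval 0.892 to 1.05%, counting error only). Of these, 301 lay at a single codon, 72 codons before the start codon. The sequence is shown because it holds several AUGs. It lies on the minus strand of GRCh37 (chr10:32345103-32345132, 5′UTR of KIF5B), and the capitals mark the codon with the 301 reads.
KIF5B codon -72: cgccatggctgccatGATggatcggaagtg
The KIF5B 5′UTR contained 3 AUGs, at 227, 218 and 215 nt before the start codon, all in one reading frame that is not the frame of the CDS. The capitals begin 1 nt before the last of them. All 3 run into a stop codon at 203 nt before the start codon, so that the longest of these upstream reading frames has 8 codons. The span from just before the first AUG to that stop codon held 459 of the 567 reads (80.9%). Since the table lists in-frame reads alone, reads in the frame of these AUGs are not counted in this number.

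**Figure D2:**
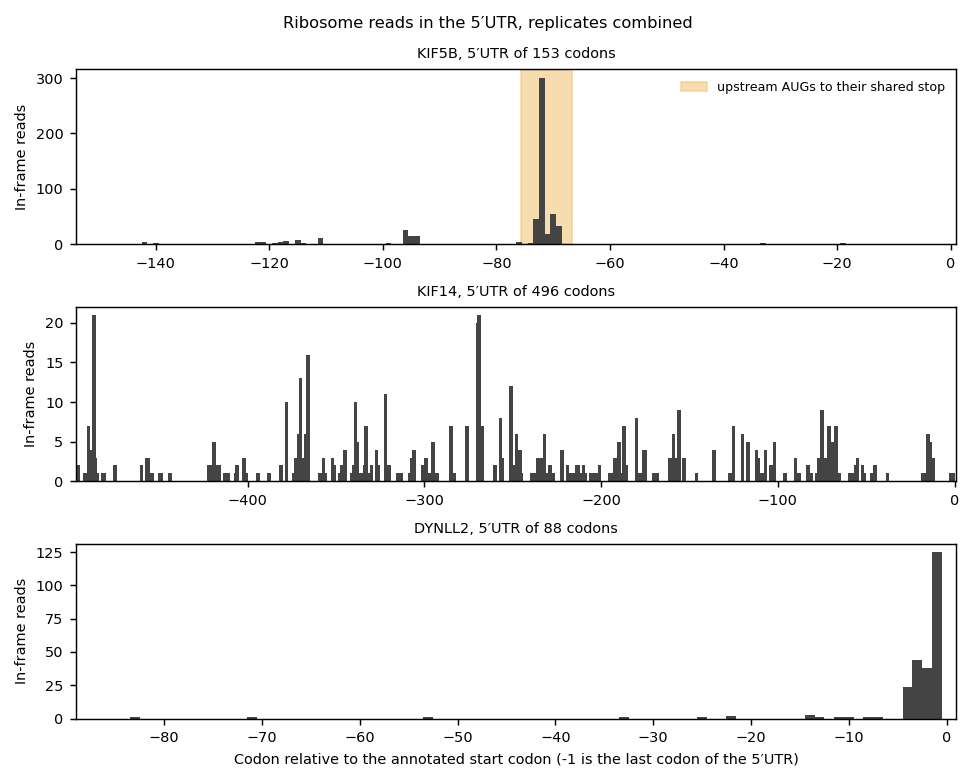
In-frame reads per 5′UTR codon (vertical axis) against distance from the annotated start codon (horizontal axis, in codons), replicates combined, for KIF5B, KIF14 and DYNLL2. KIF5B has a single peak of 301 reads inside the shaded span of the upstream reading frames. KIF14, whose CDS matched no reference transcript in length, has reads spread over its listed 5′UTR of 496 codons, at most 21 at one codon. DYNLL2 has 231 of its 246 reads in the last 4 codons before the start codon.

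KIF3A and KIF3B form the heterodimer of kinesin-2, which drives intraflagellar transport in cilia. KIF3A had TE values of 0.477, 0.462 and 0.470, and KIF3B had 0.388, 0.328 and 0.328, so the replicates did not overlap. The difference was 0.43 ± 0.12 (SD) on the log2 scale, or 1.35-fold. KIF3A was above the median of all genes (limma adjusted p = 0.00275) and KIF3B was not called (adjusted p = 0.11). In the occupancy table the pair stood further apart: KIF3B mRNA was 2.38-fold more abundant, whereas KIF3A had 3.55-fold more reads per codon, which made its mean CDS occupancy 8.42-fold higher. The TE is a value per gene and the occupancy a value per transcript, and the part this plays in the unequal differences was not tested. KIF3C, another kinesin-2 motor, was measured in the occupancy table with 245 CDS reads and an mRNA level of 0.168.

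In the kinesin-3 family, which carries vesicles and organelles, KIF1C had the lowest TE of all motor genes at 0.0868, 0.103 and 0.0854. KIF1B, its close relative, had 0.302, 0.265 and 0.313 and did not overlap with it (3.20-fold, 1.58 ± 0.26 (SD) on the log2 scale). KIF1C lay at -1.95 ± 0.07 (SE) from the median of all genes on the log2 scale (limma adjusted p = 7e-06). Its mRNA was 3.16-fold more abundant than that of KIF1B, but it had 1447 CDS reads against 6313, and KIF1B occupancy was 13.4-fold higher. KIF1C was thus low in TE and, in the occupancy table, an mRNA above the median level with few ribosome reads. KIF13A and KIF13B, transporters of recycling endosomes and other membranes, were in the occupancy table only. KIF13A mRNA was 5.19-fold more abundant than KIF13B mRNA, with 1.54-fold more reads per codon.

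Mitotic kinesins were led by KIF11, the plus-end motor that pushes spindle poles apart. KIF11 stood at TE values of 2.50, 2.38 and 2.40, which was 2.63 ± 0.05 (SE) above the median on the log2 scale (limma adjusted p = 1.55e-06). KIF4A, a chromokinesin that binds chromosome arms and the midzone, had 1.19, 1.03 and 1.21. KIF18A, which limits chromosome movement at the metaphase plate, had 1.12, 0.957 and 0.886, while its paralog KIF18B, which shortens astral microtubules, had 0.144, 0.158 and 0.181. KIF18A and KIF18B were 6.14-fold apart in TE (2.55 ± 0.32 (SD) on the log2 scale). In the occupancy table the pair stood much closer. The mRNA levels were within 1.10-fold of each other, and KIF18A had 1.61-fold more reads per codon and a 1.46-fold higher mean CDS occupancy. Why the differences in TE and occupancy were so unequal was not tested.

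KIF2A and KIF2C are kinesin-13 proteins that take tubulin off microtubule ends rather than walk. KIF2A had TE values of 0.837, 0.857 and 0.879, above KIF2C with 0.455, 0.445 and 0.452 (1.90-fold), while KIF2C mRNA was 2.80-fold more abundant. The 3 kinesin-6 genes, which act in the central spindle and cytokinesis, did not move as one. KIF20A stood at 0.448, 0.453 and 0.426, close above the median. KIF23 stood at 0.317, 0.319 and 0.308, below it. KIF20B had 1.18, 0.613 and 0.669, the widest spread of all motor genes. One replicate of KIF20B therefore carries much of its difference of -0.82 ± 0.50 (SD) on the log2 scale from KIF20A to KIF20B, although the replicates of the pair did not overlap. The worth of 1 read in the occupancy table also varied 3.87-fold between the replicates for KIF20B, against a median of 1.78-fold over all transcripts.

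Low TE values were also found in a mitotic kinesin, KIF22, and in KIF7 and KIF21A, which belong to neither list. KIF22, a chromokinesin that pushes chromosome arms away from the poles, had 0.142, 0.142 and 0.144 while its mRNA was at 5.65 times the median transcript. KIF7, which sits at the tip of cilia and regulates hedgehog signalling, had 0.131, 0.139 and 0.140, 8.37-fold below its kinesin-4 relative KIF4A. KIF21A, another kinesin-4 protein that slows microtubule growth, had 0.102, 0.0893 and 0.105. These 3 genes lay at -1.86 to -1.36 from the median on the log2 scale, with limma adjusted p values of 6.46e-06 to 7.13e-06. Mean CDS occupancy was 0.0244 in KIF22, 0.0104 in KIF7 and 0.0399 in KIF21A, against a median of 0.0450 over all transcripts. KIF14, a kinesin of cytokinesis, was close to the median TE at 0.506, 0.408 and 0.438. KIF1BP, the non-motor taken by the rule, had 0.225, 0.253 and 0.256 and was below the median.

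KIF4B had the highest TE among kinesins at 4.09, 4.38 and 3.62, and it is the least certain. Its coding sequence is 95.8% identical to that of KIF4A, and 29.3% of its 30-nt stretches occur in KIF4A transcripts. How the authors' counting divided reads between both genes in RPF and total RNA libraries was not tested, and KIF4B was not among the transcripts of the occupancy table.

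Dynein subunits were mostly above the median: 7 of 11 were called above, 3 below and 1 was not called. Over all genes, 44.7% were called above and 44.6% below. Of the light chains, 5 of the 5 measured were called above, with a median TE of 1.18 against 0.385 for all genes. DYNLL2, an LC8 light chain that dimerises cargo adaptors and binds many partners beyond dynein, had the highest TE of all at 5.40, 6.18 and 6.86. DYNLT1, a Tctex-type light chain, followed with 4.29, 4.49 and 4.27. These were 3.96 ± 0.08 and 3.47 ± 0.05 (SE) above the median on the log2 scale, with limma adjusted p values of 1.71e-06 and 1.11e-06. DYNLL1, the other LC8 chain, had 1.07, 1.16 and 1.30. DYNLRB1, a roadblock light chain, had 0.942, 0.978 and 1.02. DYNLT3, the second Tctex-type chain, had 0.847, 0.985 and 0.852.

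The paralogs of the light chains differed in TE and in mRNA level. DYNLL1 and DYNLL2 coding sequences, of 90 codons each with the stop codon, are 80.1% identical. DYNLL2 had a 5.23-fold higher TE (difference of DYNLL1 to DYNLL2 of -2.37 ± 0.05 (SD) on the log2 scale), whereas DYNLL1 mRNA was 4.78-fold more abundant and had 6.13-fold more reads per codon. In the occupancy table, where reads are divided by mRNA level, DYNLL1 was 1.32-fold above DYNLL2. The TE and the occupancy of this pair thus pointed in opposite directions, and which one is nearer to the output of both genes was not tested. Of the DYNLL1 30-nt stretches, 26.1% also occur in the pseudogene DYNLL1P1 and 36.5% occur in some other gene, while none of those of DYNLL2 do. DYNLT1 and DYNLT3 differed in the same direction on both scales: DYNLT1 was 4.87-fold higher in TE and 7.73-fold higher in mRNA level, but 1.12-fold higher in occupancy. Of the 30-nt stretches of DYNLT3, 20.8% occur in other genes, mostly in a pseudogene, and those of DYNLRB1 all lie in an unnamed overlapping gene model as well, so reads of both genes cannot be told from those of these copies by sequence alone where they are shared.

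Among the larger subunits, DYNC1H1, the motor heavy chain of cytoplasmic dynein 1, had TE values of 0.677, 0.643 and 0.640. DYNC2H1, the heavy chain of the ciliary dynein 2, had 0.351, 0.271 and 0.323, 2.08-fold lower and below the median of all genes. The light intermediate chain DYNC1LI1, which binds cargo adaptors, had 1.11, 1.06 and 1.18. Its paralog DYNC1LI2 had 0.344, 0.321 and 0.322, 3.40-fold lower, and DYNC2LI1, the light intermediate chain of dynein 2, had 0.345, 0.351 and 0.395. DYNC1I2, the intermediate chain that holds the light chains, had 0.344, 0.316 and 0.356. Those of DYNC2H1, DYNC1LI2, DYNC2LI1 and DYNC1I2 lay at -0.28, -0.21, -0.08 and -0.18 from the median on the log2 scale. The lower calls of DYNC1I2, DYNC1LI2 and DYNC2H1 had limma adjusted p values of 0.0333, 0.0111 and 0.0234, and each was lost when a replicate was left out: DYNC1I2 without any one of the 3, and DYNC1LI2 and DYNC2H1 without replicate 2 or without replicate 3 (adjusted p of 0.0519 to 0.135). Of DYNC1I2, 69.2% of the 30-nt stretches also occur in a pseudogene.

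**Figure D3:**
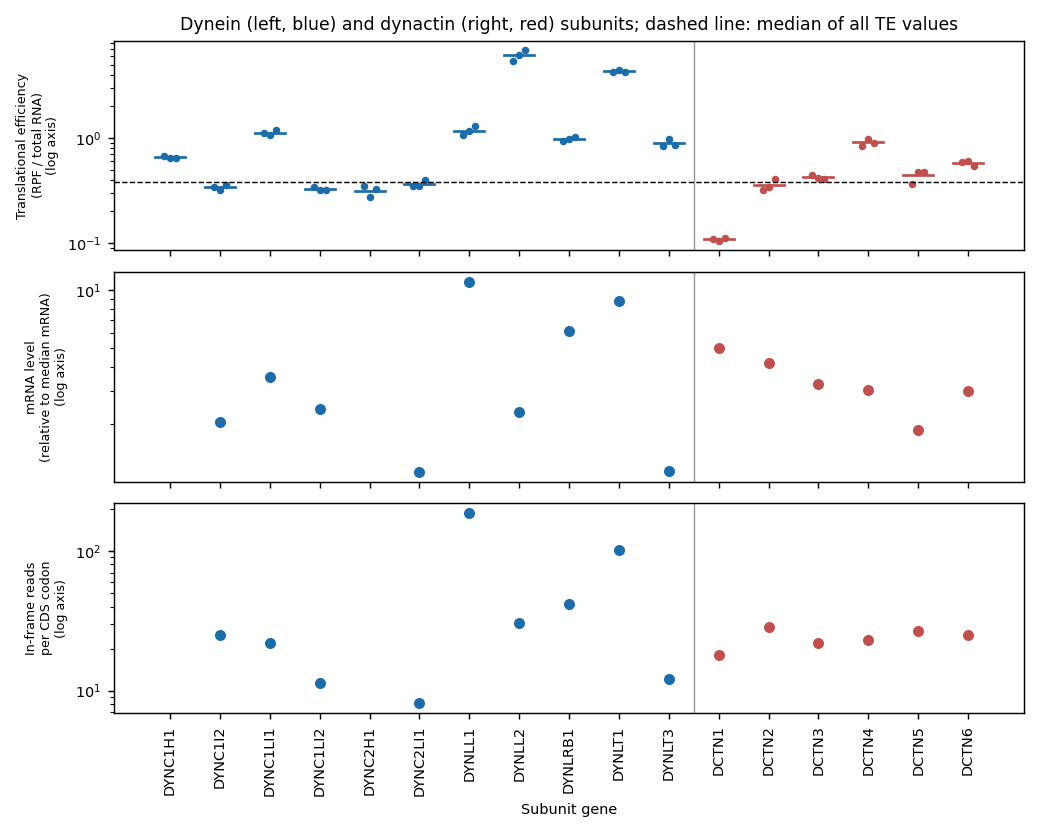
TE with a point per replicate and a bar for the mean (top), mRNA level relative to the median transcript (middle) and in-frame reads per CDS codon (bottom), all on log axes, for dynein (blue) and dynactin (red) subunits. The dynactin subunits with a DCTN symbol are spread from 0.109 to 0.909 in TE but lie between 18.0 and 28.7 in reads per codon. DYNC1H1 and DYNC2H1 have no value in the lower panels.

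The 6 dynactin subunits with a DCTN symbol lay close to each other in ribosome reads per codon, and in TE DCTN1 stood apart from the other 5. DCTN1, the large p150 subunit that binds dynein and microtubules, had TE values of 0.109, 0.105 and 0.113, -1.73 ± 0.05 (SE) from the median on the log2 scale (limma adjusted p = 3.98e-06). DCTN4, the p62 subunit of the pointed end, had 0.842, 0.982 and 0.902. DCTN6, another pointed-end subunit, had 0.591, 0.605 and 0.540, and both were called above. The shoulder subunits DCTN2 and DCTN3 were not called, DCTN2 with 0.320, 0.341 and 0.407 and DCTN3 with 0.445, 0.416 and 0.407. DCTN5, also of the pointed end, was not called with 0.365, 0.477 and 0.478. TE thus spanned 8.34-fold over the 6 genes and 2.55-fold, from 0.356 to 0.909, without DCTN1. The SD of log2 TE was 1.03 over the 6, against 1.60 over all genes and 1.46 over the dynein subunits.

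Over the same 6 genes, reads per codon spanned 1.59-fold, from 18.0 in DCTN1 to 28.7 in DCTN2. The SD of log2 reads per codon was 0.24 for these 6 genes, against 2.54 over all transcripts and 1.49 over the dynein subunits. The closeness did not extend to the whole complex. The genes of its Arp1 filament and capping protein ran from 6.67 reads per codon in ACTR1B to 94.8 in CAPZA1. They spanned 14.2-fold, with an SD of 1.43. Relative mRNA levels spanned 2.71-fold, from 1.86 in DCTN5 to 5.03 in DCTN1. Mean CDS occupancy spanned 4.06-fold, from 0.0412 in DCTN1 to 0.167 in DCTN5. The occupancy of DCTN1 was thus close to the median of 0.0450 over all transcripts, unlike its TE. DCTN1 had both the most abundant mRNA and the fewest reads per codon of the 6. Reads per codon count ribosomes on all copies of an mRNA, so this quantity is a level per length. Mean CDS occupancy is that level over mRNA level, and TE is a separately deposited ratio of RPFs to total RNA. Of the DCTN1 30-nt stretches, 14.9% occur in an unnamed overlapping gene, and 44.5% of those of DCTN6 occur in other genes, mostly in LEPROTL1.

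The partners of these motors that the symbol rule does not take were described in the same way. All 6 genes of the Arp1 filament and capping protein, the core on which dynactin is built, were called above the median, as were 44.7% of all genes, with the highest values in CAPZA1 (TE 3.72 ± 0.081, SD, n = 3), CAPZA2 (2.25 ± 0.135) and CAPZB (1.53 ± 0.0116). The actin-related proteins ACTR1A, ACTR1B and ACTR10 had 0.762, 0.589 and 0.453. The list of kinesin light chains, adaptors and the kinesin-7 motor CENPE had 0 above and 3 below among the 5 with a TE (44.7 and 44.6% of all genes). The 3 below were the light chains KLC1 (0.121 ± 0.0277) and KLC2 (0.160 ± 0.0648), and the mitochondrial adaptor TRAK2 (0.115 ± 0.0178). CENPE (0.718 ± 0.522) and the kinesin-2 adaptor KIFAP3 (0.418 ± 0.0424) were not called. KIF5B, whose heavy chain pairs with these light chains, therefore had a TE far above theirs. Of 10 dynein regulators and adaptors, 4 were above and 5 below, shares close to those of all genes. PAFAH1B1, the LIS1 protein that activates dynein, had 3.20 ± 0.385, and the Hook adaptors HOOK1 and HOOK3 had 3.32 ± 0.394 and 3.23 ± 0.275. NDEL1, which brings LIS1 to dynein, had 0.135 ± 0.0155, and the dynein 2 intermediate chain WDR34 had 0.0965 ± 0.00400.

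All 11 pairs of paralogs or like subunits with a TE for both genes had replicates that did not overlap. Over all pairs of genes in the table this was true of 90.2%, so the count says little about these pairs. With 3 values against 3, the smallest p that an exact two-sided permutation test can give is 0.10, and each pair gave it, also after adjustment over the 11 pairs.

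Levels of mRNA and of ribosome reads went together over the 44 transcripts, with a Spearman coefficient of 0.861 against 0.832 over 9566 transcripts. The reads come from the RPF libraries, and the mRNA level from the TPM of total RNA by which they were divided. Both were recovered from the same occupancy values with replicates combined, so the coefficient is a description. The 3 most abundant mRNAs were DYNLL1, KIF5B and DYNLT1, at 11.1, 9.62 and 8.81 times the median transcript. The 3 least abundant were KIF5A, KIF9 and KIFC3, at 0.0707, 0.0896 and 0.0919. The median over the 44 was 1.42. By list, the median mRNA level was 1.43 for mitotic kinesins and 0.589 for transport kinesins. Reads per codon had a median of 8.51, against 3.87 over all transcripts, and ran from 0.0635 in KIFC3 to 187 in DYNLL1.

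**Figure D4:**
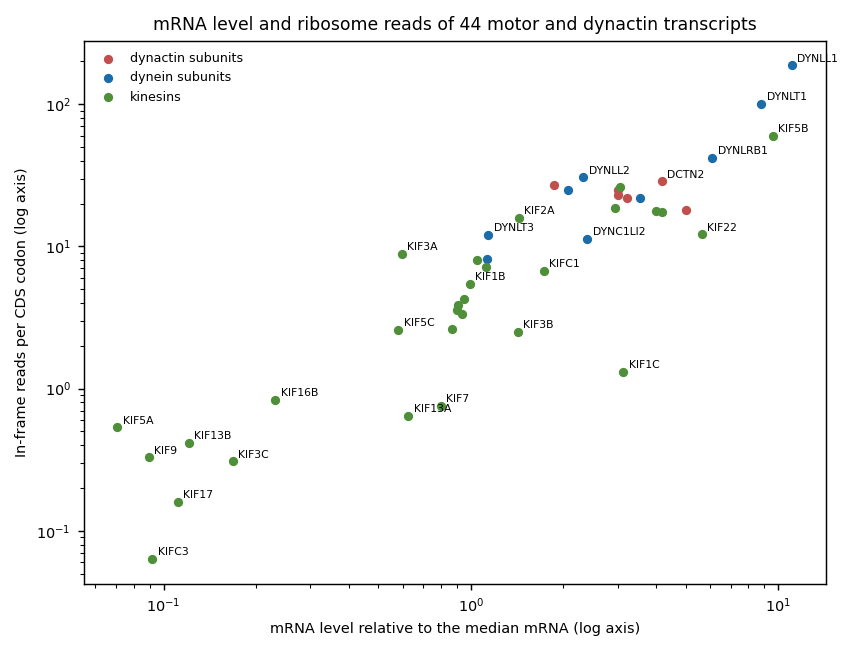
In-frame reads per CDS codon (vertical, log axis) against mRNA level relative to the median transcript (horizontal, log axis) for 44 transcripts, replicates combined, with a selection of genes named. The points rise together, and KIF1C lies below the others at its mRNA level of 3.13.

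Longer coding sequences tended to have lower values. TE and the number of CDS codons had a Spearman coefficient of -0.396 over 33 motor genes and -0.259 over 6912 genes, and mean CDS occupancy and codons had -0.575 over 44 and -0.281 over 9566. TE and occupancy, which share the RPF libraries, had a coefficient of 0.625 over the 33 motor genes and 0.688 over all genes. The median of mean CDS occupancy was 0.0578 for the motor genes and 0.0450 for all transcripts.

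The distribution along the CDS was described with the first and the last 75 codons, in the 40 transcripts with a CDS over 300 nt. The first window was at least 2 times the last in 10 of 40, against 19.7% of 9343 transcripts, and the reverse was found in 1 of 40, against 22.4%. The median ratio was 1.06 in the motor genes. By list, 6 of 12 transport kinesins and 1 of 13 mitotic kinesins had the higher first window.

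KIF9, a kinesin of motile cilia, was the most uneven: 227 of its 239 CDS reads lay in the first 75 of 726 codons (95%, exact 95% interval 91.4 to 97.4%) and 0 in the last 75. Its mRNA level was 0.0896, so these reads come from a rare mRNA. KIF13B and KIF13A had ratios of 9.38 and 9.32, on 57 against 7 and 159 against 18 reads. In KIF13A the start codon held 38 reads, 60.1 times the CDS mean. KIF16B, which carries early endosomes, had a ratio of 3.45, on 80 against 21 reads, and KIF1C one of 3.28. At the other end, DYNC1LI2 had 416 reads in its first 75 codons against 1245 in its last 75, a ratio of 0.323. KIF11 and KIF2C followed at 0.50 and 0.51, just outside the 2-fold limit. KIFC3 was one of the 10, on 3 reads in the first window alone.

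**Figure D5:**
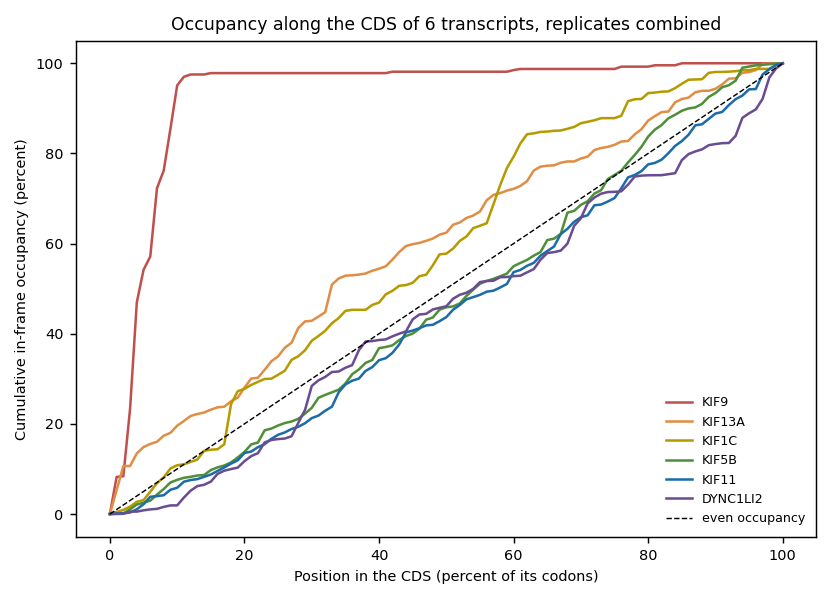
Cumulative in-frame occupancy (percent, vertical) against position in the CDS (percent of codons, horizontal), replicates combined, for 6 transcripts. KIF9 reaches nearly its whole occupancy early in the CDS, KIF13A and KIF1C lie above the dashed line of even occupancy for most of the CDS, and KIF11 and DYNC1LI2 lie below it for most of the CDS.

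Single codons stood far above their surroundings in each transcript. The highest codon had a median of 21.0 times the CDS mean in the motor genes and 20.7 times in all transcripts with at least 100 reads. The highest folds were at codon 46 of KIF9 (78.7 times, 26 reads), codon 580 of KIF13A (68.7 times, 42 reads) and codon 199 of KIF1C (43.7 times, 53 reads). By reads, DYNLL1 codon 13 held the most, 1705, which was 9.12 times its mean. KIF5B codon 653 held 1519 (25.6 times).

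The codon after the highest one was a glutamate codon in 13 of 40 motor transcripts (32.5%), against 23.3% of 8313 other transcripts and against 9.29% of all codons in these coding sequences. Averages by following codon were taken over each CDS with 500 or more reads, without short stretches at its start and end. Each codon counted for at most 20 times the mean of the remaining codons. Codons followed by glutamate had 1.67 ± 0.580 (SD) times that mean over 37 transcripts, and 33 of 37 were above 1. Codons followed by aspartate had 1.76 ± 0.639, and those followed by lysine had 1.48 ± 0.311. Codons followed by proline, glycine and alanine had 0.418 ± 0.163, 0.528 ± 0.197 and 0.542 ± 0.176. The other transcripts had 1.83, 1.75, 1.58, 0.431, 0.526 and 0.533 for the same 6 residues in that order, so the motor genes followed the general profile. This count by following codon was chosen after the highest codons had been seen.

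Sites in like sequence are shown because related kinesins had high occupancy at the same residue. In kinesin-1, the highest codon of KIF5A (14 reads, 23.2 times the CDS mean) and that of KIF5C (80 reads, 33.4 times) were both codon 433, an aspartate followed by glutamate. The aligned codon of KIF5B, 437, encodes glutamate instead and had 1.38 times its mean on 82 reads. Capitals mark the codon with these reads. The windows span an exon junction and lie at chr12:57963934-57965121 (plus strand), chr2:149830014-149835453 (plus) and chr10:32321685-32322784 (minus) of GRCh37.
KIF5A codon 433: cttgacgacaaggatGATgaaatcaaccaa
KIF5C codon 433: ctggatgacaaggatGATgaaattaaccag
KIF5B codon 437: cttgatgacaaggatGAAgaaattaaccag
The highest codon of KIF5B, 653, was also followed by glutamate. At the aligned codon, 650 in both genes, KIF5A had 1 read and KIF5C had 2.

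The highest codon of KIF3A (298) and of KIFC1 (616), the minus-end kinesin that clusters centrosomes, was the arginine of a stretch shared by many motor domains, in which tyrosine and arginine are followed by an acidic residue or asparagine and then serine, lysine and leucine. The stretch was searched in the translated CDS after these codons had been seen, and 13 of 27 kinesins with a sequence held it. Of the 4 kinesin-2 genes, 3 had a high value there: 13.4 times the CDS mean in KIF3A (112 reads), 15 times in KIF3B (38 reads) and 19.1 times in KIF3C (5 reads). KIF17, the other kinesin-2 gene, had 0 reads at its arginine codon, 288, on 165 reads in the whole CDS of 1030 codons, a depth at which a value cannot be read there. KIFC1 had 26.8 times (171 reads), KIF21A 6.41 times (22 reads) and KIF22 5.57 times (65 reads). The stretch was chosen for KIF3A and KIFC1, whose values are therefore no support for it. In the other 9 genes with 1000 or more reads the median was 2.09 times, 8 were above their mean and 3 were among the highest 5% of codons of their CDS. Among these 9, KIF18A had 0 reads, and KIF18B and KIF4A had 1.04 and 1.54 times. The arginine is followed by aspartate, glutamate or asparagine in each of these genes. Codons followed by these residues averaged 1.76, 1.67 and 1.36 times the mean in the motor genes, with the ends of the CDS left out. Those averages capped each codon at 20 times the mean, whereas the folds at the arginine codons are not capped. Whether the arginine of the stretch stands above other codons followed by these residues was not tested. Capitals mark the arginine codon, at chr5:132051985-132052014 (minus strand), chr20:30898442-30898471 (plus), chr2:26203821-26203850 (minus), chr6:33374372-33374401 (plus) and chr11:28106317-28106346 (minus) of GRCh37, each within one coding exon.
KIF3A codon 298: actcatgtgccttatCGTaactctaaactg
KIF3B codon 293: actcacattccatatCGGgactcaaagctt
KIF3C codon 318: acccacattccctacCGGgactccaagctg
KIFC1 codon 616: tcccacgtgccttacCGGaacagcaaactg
KIF18A codon 308: cagcatatcccttacAGAaatagtaagctt
The occupancy table combines the replicates, so no value at a single codon has a replicate error.

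The share of in-frame occupancy in the 5′UTR had a median of 0.212% over the 32 motor transcripts with a 5′UTR over 100 nt, against 0.796% over all transcripts. The share divides the occupancy summed over the 5′UTR by that summed over 5′UTR and CDS. It therefore also depends on the lengths of both, which were not adjusted for. KIF9, KIF14 and DYNLL2 had the highest shares, 13.3, 11.7 and 8.19%. KIF9 rested on 38 reads (exact 95% interval of the read share 9.89 to 18.3%). KIF14 had 586 reads, at most 21 at one codon, along a listed 5′UTR of 496 codons. DYNLL2 had 246, of which 125 lay at the last codon before the start codon and 38, 44 and 24 at the 3 codons before it, going outwards. The start codon itself held 73. The window of DYNLL2 spans an exon junction (chr17:56161036-56164463, plus strand), with the codon of the 125 reads in capitals and the start codon after it.
DYNLL2 codon -1: tccgtgaagtgtcacACCatgtctgaccgg
KIF2C had 258 reads in the 5′UTR, a share of 2.29%. The CDS of KIF14 and that of KIF2C matched no reference transcript in length. Whether their listed 5′UTRs hold coding sequence of other transcripts was therefore not tested, and their shares are uncertain.

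Of the 11 transcripts whose 5′UTR over 100 nt also had the length of the reference within 15 nt, 7 had an AUG upstream of the start codon in any frame. In DYNLL1 a reading frame of 14 codons from such an AUG covered 50 of 72 reads in the 5′UTR, and in KIF1C one of 25 codons covered 17 of 25. In KIF9, 5 upstream AUGs were found, and the reading frame with the most reads covered 15 of 38. These reading frames of DYNLL1, KIF1C and KIF9 are not in the frame of the CDS. As in KIF5B, the reads counted over them are therefore not in their own frame. The share of all transcripts with an upstream AUG was not counted. The DYNC1I2 start codon was the highest codon of its CDS, with 472 reads, 19.4 times the mean.

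The bases around the start codon were read from the reference, which no count entered. The base 3 nt before the AUG was A or G in all 44 motor genes with a matched reference transcript and at least 15 nt of 5′UTR, against 85.9% of 18595 canonical protein-coding transcripts. The base after the AUG was G in 28 (63.6%), against 50.9%.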

How the data were processed

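RPF and total RNA libraries came from 3 control siRNA replicates of HEK293 cells, numbered 1 to 3 in the labels. The authors trimmed adapters, removed PCR duplicates, aligned RPFs to the hg19 transcriptome and counted total RNA per gene; the submitters' processing notes name cutadapt 1.16, Bowtie 1.1.2, TopHat2 2.1.1 and HTSeq 0.9.1. The deposited TE table holds a linear ratio per gene and replicate. The deposited occupancy signal lists, per transcript, in-frame RPF counts per codon over library size and TPM, replicates combined.

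Members and lists were chosen with earlier results of these data known. Genes named in the text were all dynein and dynactin members, the 6 kinesins with the highest and lowest TE, the genes of fixed pairs, and the 3 extremes of 5′UTR share, window ratio, highest codon (from 100 reads) and mRNA level; others were named after their values were seen. Each TE was set against the median of all genes in a limma fit (version 3.58.1, R 4.3.3) of log2(value + 0.01). No low values were filtered, p-values were adjusted over the 8121 genes by Benjamini-Hochberg, and the FDR was 0.05. Folds on this scale understate the change of low genes. Pairs were compared with exact permutation tests.

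Each occupancy value is a whole-number sum of 3 steps, the worth of 1 read in each replicate (relative tolerance 1e-08). Steps were found for 9447 of 9570 transcripts (98.7%) and for all 44 motor transcripts, giving in-frame reads and, as the inverse of their geometric mean, mRNA level. Values above 60 times the smallest step are estimates. Steps were not assigned to replicates. Both methods were tested on simulated data. Sequences come from GENCODE 44 on GRCh37, the build of hg19, matched by symbol and CDS length. DYNC1H1, DYNC2H1, KIF1BP and KIF4B, which have no occupancy values, were matched by symbol to the canonical transcript, KIF1BP under the symbol KIFBP. DYNLT1, KIF14 and KIF2C had no match. Exact (Clopper-Pearson) 95% intervals cover counting error only. Same-numbered RPF and total RNA libraries come from the same lysate, and each TE is taken within such a pair. Scripts ran in Python 3.11.15 (scipy 1.17.1, pandas 2.3.3, numpy 2.4.6).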

Additional observations from a re-analysis of the deposited data

Results flagged for a closer look

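In-frame reads in the 3′UTR were not used in any comparison. Of the 44 transcripts, 13 held more than the 3 reads that a count of 0 allows, 19 held 0, and the sum was 316. DYNLL2 held 168, of which 46, 41 and 22 lay at codons 44, 42 and 43 after the stop codon. DCTN5 and KIF1C held 24 each, KIF3A 11, DYNLL1 and KIF1B 10 each, DYNLT1 and KIF18B 9 each, KIF3B 8, KIF11 and KIF21A 6 each, DYNC1LI2 5 and KIF5B 4. The 3′UTRs of DCTN5 and KIF1C were long, at 2205 and 1426 codons. No control sample exists in which such reads could be counted as background.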

How the results depend on the processing

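Of 410 alternative values, 388 kept direction and side of the threshold, 15 lost the call, 5 gained one, 1 changed sign and 1 moved by more than its spread. DCTN3, not called at 0.14 on the log2 scale, came to -0.030 with the mean of all values as reference. The median of mean CDS occupancy fell from 0.0578 to 0.0378 without the 5% highest codons, which lowers every transcript by construction (all transcripts 0.0266). With the mean as reference, KIF14, KIF20A, KIF2C and KIF3A lost their higher call and KIF3B, DCTN2 and DYNC2LI1 gained a lower one. Leaving out each replicate in turn gave 19 genes above in each case and 9 to 12 below; KIF14 and KIF20A each lost the call in 2 of 3 cases, KIF3B and DCTN5 gained one without replicate 1. A replicate block gave 20 above and 12 below, so the pairing changed no call, and for the pairs a sign-change test within replicates gave an exact p of 0.25, the smallest possible. With 100 or more reads required, 18 of 33 were above and 10 below. Depth limits the statements on KIF9, KIF3C, KIF17 and KIFC3, which had 53 to 245 CDS reads.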
